A study of Drosophila melanogaster with 8 samples.

Results

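The 7 genes described here encode the glutamate receptor of the *Drosophila* larval neuromuscular junction and the proteins that hold it in place, namely the receptor subunits *GluRIIA*, *GluRIIB*, *GluRIIC*, *GluRIID* and *GluRIIE*, the auxiliary subunit *Neto* and the scaffold gene *dlg1*. They were listed by name, from what is known of this synapse. All 7 were found among the 17473 genes of the expression tables. Their transcripts were low in whole larvae. No change of any subunit or of *dlg1* between strains passed the test across all genes. *Neto* was higher in both SmnΔ/Δ libraries than in the other 6, as were 13.5% of all genes tested. The share of *GluRIID* among the subunit transcripts, singled out after its values were seen, did not overlap between the 4 strains. Of all genes tested, 2.03% separated the strains when divided by the same subunit sum. In its level itself *GluRIID* overlapped between strains.

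Larval motor neurons release glutamate onto body wall muscle, where ionotropic glutamate receptors open and depolarise the fiber. The subunits GluRIIC, GluRIID and GluRIIE are present in every receptor, whereas GluRIIA and GluRIIB take each other's place, and receptors with GluRIIA pass more current and desensitise more slowly. Neto binds the receptor and is needed for its clustering opposite the release sites, and Dlg, a membrane-associated guanylate kinase, scaffolds the postsynaptic membrane and serves as its usual immunostaining marker.

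The libraries were made from whole larvae of the wandering L3 stage, the last larval instar, of 4 strains, with 2 libraries of each. The control was *w1118*, called *WT*, and the deletion strains carried homozygous deletions made with CRISPR/Cas9, marked delta/delta after the gene in the labels and written here as U12Δ/Δ, U6atacΔ/Δ and SmnΔ/Δ. *U12* and *U6atac* are small nuclear RNAs of the minor spliceosome and *Smn* is the fly survival motor neuron gene, so the comparisons ask whether loss of minor splicing and loss of *Smn* act on the same synapse genes. Larvae were pooled within a library, U12Δ/Δ and U6atacΔ/Δ animals die as pupae, no second deletion line was sequenced, and a lower level in whole larvae cannot be told apart between fewer muscle cells and less RNA in each. By the study's own staging the sequenced SmnΔ/Δ larvae were at an earlier point of L3 than those of the other strains, so genotype and stage cannot be told apart in that strain.

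Between 25618603 and 32080430 reads per library lay in the genes used. The deposited values (TPM, the reads of a gene divided by its length and scaled to a fixed total per library) did not follow the gene lengths of their own rows. With each gene's own length, between 0.770% and 0.957% of the values above 0 were whole numbers of reads within 0.002 of a read, and 99.8% were whole once the lengths were taken from a list of 17771 entries that ran on from library to library, 298 entries longer than the table. All levels below were therefore recomputed from these whole reads and the gene's own length, for the 17130 genes that could be resolved in all 8 libraries. The Spearman correlation between the libraries of a strain was 0.881 to 0.905 in the deposited values and 0.947 to 0.969 in the recomputed ones.

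**Figure D1:**
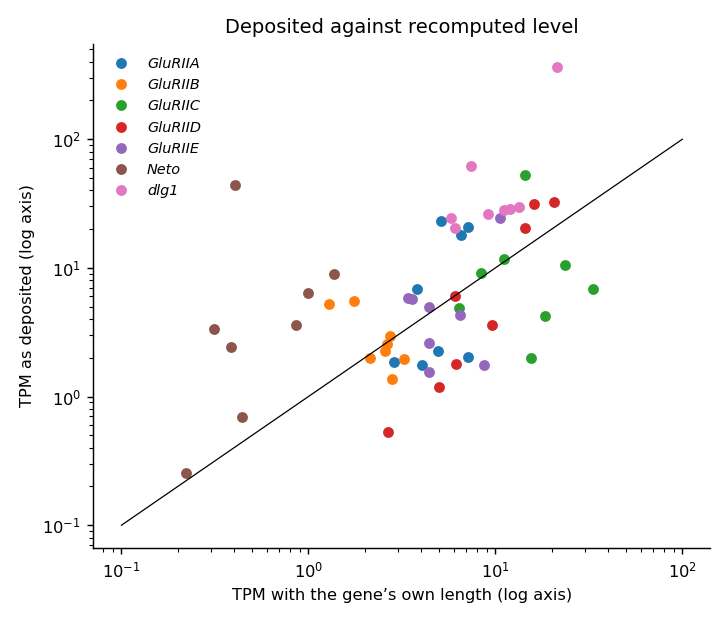
Deposited TPM (y axis, log) against TPM recomputed with the gene's own length (x axis, log) for the 7 genes, 1 point per gene and library, with a line of equality. The points scatter on both sides of the line, and the deposited value is 0.128 to 109 times the recomputed one, with every *Neto* and *dlg1* point above the line.

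The targeted genes were read first. *Smn* was at 43.2 and 32.3 TPM in *WT* and at 8.27 and 11.2 TPM in SmnΔ/Δ, below both *WT* libraries, but it was also low in U6atacΔ/Δ, at 10.8 and 15.2 TPM, and was at 18.1 and 37.6 TPM in U12Δ/Δ. The *U12* snRNA had 28 and 10 reads in *WT*, 9 and 15 in U6atacΔ/Δ, 11 and 5 in SmnΔ/Δ and 0 in both U12Δ/Δ libraries, a count that allows up to 3 reads in each. The *U6atac* snRNA had 0 reads in all 8 libraries, so it checks nothing. The SmnΔ/Δ libraries held few transcripts of the late L3, since 11 genes of salivary glue and fat body proteins summed to 3.36 to 5.12 TPM there against 79063 to 82455 TPM in *WT*. The U12Δ/Δ libraries stood apart from each other in the same list, with *Sgs3*, a salivary glue gene, at 69137 TPM in library 1 and 5.07 TPM in library 2. Of the 11206 genes tested, 23.2% differed more than 2-fold between the U12Δ/Δ libraries, against 9.82% in *WT*, 6.57% in U6atacΔ/Δ and 11.8% in SmnΔ/Δ.

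The genes lie at 5 places in the genome (dm6, 1-based, as in the deposited tables). *GluRIIA* (FBgn0004620, chr2L:5555072-5558994, plus strand) and *GluRIIB* (FBgn0020429, chr2L:5559342-5563502, plus strand) are neighbours, with 347 bases between the end of the former and the start of the latter. *GluRIIC* (FBgn0046113, chr2L:914086-917805, plus strand) stands alone on the same arm. *GluRIID* (FBgn0028422, chr3R:20648595-20652450) and *GluRIIE* (FBgn0051201, chr3R:20644154-20648716) are both on the minus strand and share 122 exon bases. *Neto* (FBgn0265416, chrX:13445903-13527282) and *dlg1* (FBgn0001624, chrX:11369665-11409776) are long genes on the plus strand of the X chromosome. The exons of the 5 subunits sum to 2949 to 3444 bases, those of *Neto* to 8256 and those of *dlg1*, which has 21 annotated transcripts, to 11505. Reads in shared exon bases, which also include 66 between *GluRIIA* and *CG14017* and 126 between *GluRIIE* and *Lrrk*, could fall to either gene.

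*GluRIIC*, a subunit of every receptor, was the most abundant subunit transcript in 7 of 8 libraries. Its level was 8.35 and 33.3 TPM in *WT*, 6.42 and 23.4 TPM in U12Δ/Δ, 15.4 and 14.5 TPM in U6atacΔ/Δ and 18.4 and 11.1 TPM in SmnΔ/Δ. The spread between the libraries of 1 strain was as wide as that between strains, 3.99-fold in *WT* and 3.65-fold in U12Δ/Δ. Group means ran from 20.8 ± 17.6 TPM in *WT* to 14.7 ± 5.18 TPM in SmnΔ/Δ (SD, n = 2), and no neighbours in this order were separate.

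*GluRIID*, the next of the obligate subunits, was at 6.11 and 20.6 TPM in *WT*, 2.68 and 6.17 TPM in U12Δ/Δ, 14.3 and 16.2 TPM in U6atacΔ/Δ and 9.55 and 5.02 TPM in SmnΔ/Δ. Both U6atacΔ/Δ libraries thus lay above both U12Δ/Δ libraries, as in 9.92% of all genes tested, and above both SmnΔ/Δ libraries, as in 14.7%. *WT* overlapped with every deletion strain. The means were 13.3 ± 10.2, 4.43 ± 2.47, 15.2 ± 1.31 and 7.28 ± 3.20 TPM in the same order (SD, n = 2).

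*GluRIIE*, the last obligate subunit, was at 4.39 and 10.6 TPM in *WT* and 3.39 and 8.65 TPM in U12Δ/Δ. It was at 3.57 and 4.44 TPM in U6atacΔ/Δ and 6.47 and 4.44 TPM in SmnΔ/Δ. All strains overlapped, and *GluRIIE* was below *GluRIIC* in 8 of 8 libraries and below *GluRIID* in 6. The obligate subunits were therefore not transcribed at equal steady-state levels, and the highest of the 3 was 1.90 to 4.32 times the lowest within a library.

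*GluRIIA*, which gives the receptor with the larger current, was at 3.80 and 6.56 TPM in *WT* and 2.88 and 7.15 TPM in U12Δ/Δ. It was at 4.04 and 4.96 TPM in U6atacΔ/Δ and 7.09 and 5.12 TPM in SmnΔ/Δ. Only U6atacΔ/Δ and SmnΔ/Δ were separate for this gene, and by a small step from 4.96 to 5.12 TPM. Of all genes tested, 44.8% were likewise lower in both U6atacΔ/Δ libraries than in both of SmnΔ/Δ.

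*GluRIIB*, its alternative in the complex, was the lowest subunit in 8 of 8 libraries. It was at 2.13 and 2.58 TPM in *WT*, 1.75 and 2.62 TPM in U12Δ/Δ, 1.29 and 2.74 TPM in U6atacΔ/Δ and 2.81 and 3.23 TPM in SmnΔ/Δ. Both SmnΔ/Δ libraries were above the other 6, as in 13.5% of all genes. These levels rested on 81 to 222 reads per library, and those of *GluRIIA* on 250 to 410.

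*Neto* was the lowest of the 7 genes in every library. Its level was 0.222 and 0.404 TPM in *WT*, 0.313 and 0.859 TPM in U12Δ/Δ, 0.387 and 0.442 TPM in U6atacΔ/Δ and 1.37 and 0.993 TPM in SmnΔ/Δ. Both SmnΔ/Δ libraries were above all others, which held for 13.5% of all genes tested, and *WT*, U12Δ/Δ and U6atacΔ/Δ overlapped. The gene had 38 and 58 reads in *WT*, 69 and 125 in U12Δ/Δ, 68 and 65 in U6atacΔ/Δ and 196 and 191 in SmnΔ/Δ, and its mean of 0.623 TPM was below the limit of 1 TPM for the test across genes.

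*dlg1*, the scaffold gene, was at 7.40 and 13.4 TPM in *WT*, 5.80 and 11.99 TPM in U12Δ/Δ, 6.10 and 9.10 TPM in U6atacΔ/Δ and 21.4 and 11.1 TPM in SmnΔ/Δ. It was the highest of the 7 genes in both SmnΔ/Δ libraries and in no other, by a narrow margin over *GluRIIC* in library 2, which was also below *WT* library 2. With 1495 to 4284 reads per library, *dlg1* was the most deeply read of the genes.

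**Figure D2:**
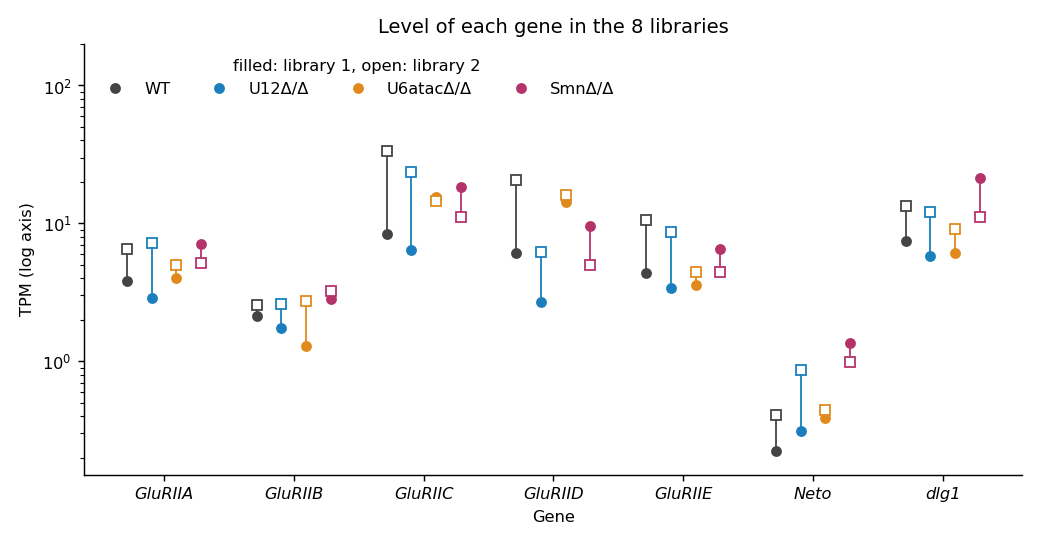
TPM (y axis, log) of the 7 genes (x axis) in 2 libraries of each strain, with filled circles for library 1, open squares for library 2 and a line joining them. *GluRIIC* spans 6.42 to 33.3 TPM and its *WT* libraries are 3.99-fold apart, *Neto* lies below all other genes in each library, and its SmnΔ/Δ points (0.993 and 1.37 TPM) are above the other 6.

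The make-up of the receptor transcripts was then compared, which sets each subunit against the sum of all 5 and so does not depend on how a library was scaled. This sum itself ran from 17.1 TPM in U12Δ/Δ library 1 to 73.6 TPM in *WT* library 2. *GluRIID* took 24.7% and 27.9% of it in *WT*, 15.6% and 12.8% in U12Δ/Δ, 37.0% and 37.8% in U6atacΔ/Δ and 21.5% and 17.4% in SmnΔ/Δ. The 4 strains did not overlap, in the order U6atacΔ/Δ, *WT*, SmnΔ/Δ and U12Δ/Δ, and the libraries of a strain were at most 4.17 percentage points apart. When every gene tested was divided by the same sum of 5 subunits, 2.03% separated all 4 strains. *Neto*, which was not among the genes tested, also separated them when divided by this sum. On TPM itself 3.84% did, with 0 of the 7 genes among them. *GluRIIE* had its lowest shares in U6atacΔ/Δ, at 9.24% and 10.4%, against 14.4% to 19.8% in the other 6 libraries, a pattern shown by 19.2% of all genes divided by that sum. These shares were singled out after their values were seen and have no test, and *GluRIID* and *GluRIIE* share exon bases.

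The remaining shares separated the strains less. *GluRIIC* made up 33.7% to 48.8% of the sum and *GluRIIB* 3.34% to 11.2%, with all strains overlapping. *GluRIIA* took 15.3% and 8.92% in *WT*, a range that held both U6atacΔ/Δ libraries (10.5% and 11.6%) and reached into that of U12Δ/Δ (16.8% and 14.9%), and took 16.0% and 17.7% in SmnΔ/Δ.

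The balance of the alternative subunits was read from the log2 ratio of *GluRIIA* to *GluRIIB*, with 1 added to each TPM. It was 0.62 and 1.08 in *WT*, 0.49 and 1.17 in U12Δ/Δ, 1.14 and 0.67 in U6atacΔ/Δ and 1.09 and 0.53 in SmnΔ/Δ. *GluRIIA* was the higher of the pair in 8 of 8 libraries, at 61.3% to 75.8% of their summed TPM. Against the *WT* mean of 0.85 ± 0.33, the mean was 0.83 ± 0.48 in U12Δ/Δ (two-sided exact permutation test, p = 1.0), 0.90 ± 0.33 in U6atacΔ/Δ (p = 0.667) and 0.81 ± 0.39 in SmnΔ/Δ (p = 1.0; SD, n = 2 each). With 2 libraries against 2 this test cannot give a p below 0.333, so these values are a description.

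**Figure D3:**
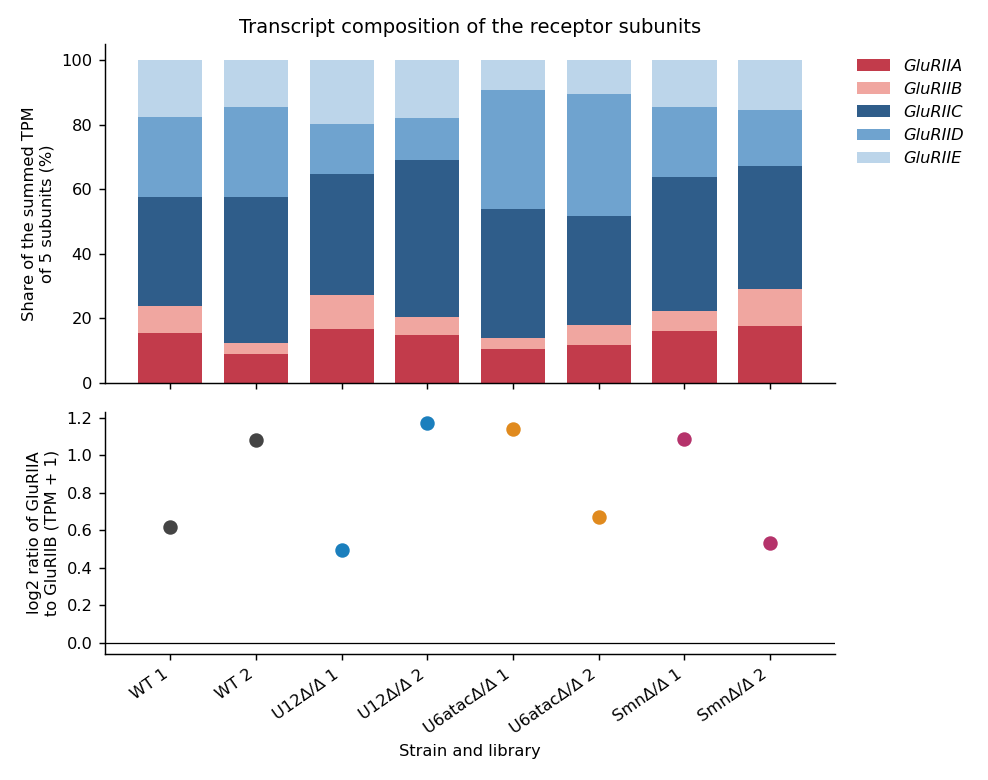
Top, share of each subunit in the summed TPM of the 5 subunits (y axis, percent) for the 8 libraries (x axis), and bottom, the log2 ratio of *GluRIIA* to *GluRIIB* (TPM + 1). The *GluRIID* block is tallest in U6atacΔ/Δ (37.0% and 37.8%) and shortest in U12Δ/Δ (15.6% and 12.8%), whereas the ratio lies between 0.49 and 1.17 with all strains overlapping.

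Since the receptor is made by body wall muscle, the genes were set against the mean log2(TPM + 1) of 15 larval muscle genes, among them myosin heavy chain (*Mhc*), actins and troponins. This muscle level was 8.02 and 9.32 in *WT*, 7.54 and 9.23 in U12Δ/Δ, 8.61 and 8.62 in U6atacΔ/Δ and 8.95 and 8.20 in SmnΔ/Δ. The *WT* and the U12Δ/Δ libraries thus differed by 1.29 and 1.69 log2 units within a strain, more than any means of the strains did, and the strains overlapped throughout.

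*GluRIIC* followed the muscle level closely, with Pearson's r = 0.98 over the 8 libraries (exact permutation test, p = 9.92e-05, adjusted over 7 genes 0.000694; Spearman's rho = 0.98, p = 0.000397, adjusted 0.00278). The tests of this relation treat the 8 libraries as exchangeable, though they are 2 from each of 4 strains. Their p values, here and for the other genes, are therefore a description. Both axes are TPM of the same library, and the part of shared scaling in r was not tested. Without the 2 libraries farthest from the median muscle level, *WT* library 2 and U12Δ/Δ library 1, r was 0.99. Within strains the libraries moved the same way except in U6atacΔ/Δ, where muscle hardly differed, since library 2 minus library 1 was 1.88, 1.72, −0.09 and −0.69 for *GluRIIC* and 1.29, 1.69, 0.01 and −0.76 for muscle in *WT*, U12Δ/Δ, U6atacΔ/Δ and SmnΔ/Δ. Relative to the muscle genes, *GluRIIC* was at −4.80 to −4.22 log2 units in all 8 libraries, and at −4.68 to −4.57 in the 6 of the deletion strains.

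*GluRIIA* and *GluRIIE* also moved with the muscle level. The share of all genes that would pass this test was not computed, and whether the relation is particular to muscle was not tested. The genes most like *GluRIIA* and *GluRIIE*, given below, were not of the muscle list, unlike those of *GluRIIC*. For *GluRIIA*, r was 0.90 (exact permutation p = 0.00268, adjusted 0.00938; rho = 0.86, p = 0.0107, adjusted 0.025) and 0.81 without the 2 libraries. For *GluRIIE*, r was 0.85 (exact permutation p = 0.00747, adjusted 0.0174; rho = 0.93, p = 0.00223, adjusted 0.00781) and 0.76 without them.

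For the others Pearson's r did not pass after adjustment. *GluRIID* had r = 0.70 (exact permutation p = 0.0526, adjusted 0.0881; rho = 0.76, p = 0.0368, adjusted 0.0515), which rested on the 2 libraries, since it was 0.23 without them. *dlg1* had r = 0.68 (exact permutation p = 0.0629, adjusted 0.0881) with rho = 0.81 (p = 0.0218, adjusted 0.0381), and r = 0.51 without them. *GluRIIB* had r = 0.34 (exact permutation p = 0.422, adjusted 0.422; rho = 0.31, p = 0.462, adjusted 0.462; 0.07 without the 2) and *Neto* r = 0.40 (exact permutation p = 0.322, adjusted 0.376; rho = 0.52, p = 0.197, adjusted 0.229; 0.52 without the 2), and libraries of 1 strain are not independent of each other in any of these relations.

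**Figure D4:**
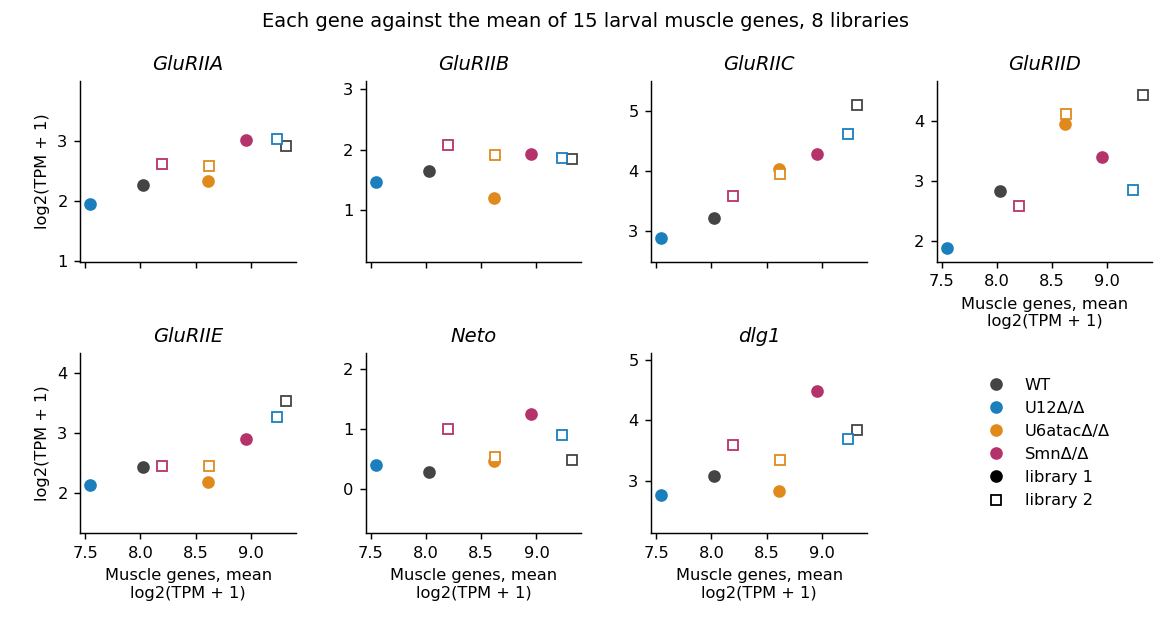
log2(TPM + 1) of each gene (y axis) against the mean of 15 larval muscle genes on the same scale (x axis), 1 point per library, colored by strain, with filled circles for library 1 and open squares for library 2. *GluRIIC* lies close to a line (r = 0.98), *GluRIIB* scatters (r = 0.34), and *GluRIID* has its U12Δ/Δ points below and its U6atacΔ/Δ points above the other libraries of like muscle level.

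*GluRIID* was also read relative to muscle. It was at −5.19 and −4.89 log2 units in *WT*, −5.67 and −6.39 in U12Δ/Δ, −4.68 and −4.52 in U6atacΔ/Δ and −5.56 and −5.61 in SmnΔ/Δ. The 4 strains did not overlap, in the same order as for the share of subunit transcripts, with which this value has its reads in common, and 1.23% of all genes set against the same muscle mean separated the strains. *Neto* in SmnΔ/Δ was at −7.71 and −7.20 and *WT* at −7.74 and −8.83, so these were separate by 0.02 log2 units only, and U12Δ/Δ library 1 was higher still at −7.15.

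Each deletion strain was then compared with *WT* by limma on log2(TPM + 1), over the 11206 genes whose TPM averaged 1 or more, and with Benjamini-Hochberg adjustment over all of them. *Neto* was below the limit, and its values are from the same fit without the limit. The SE and adjusted p of genes from the lists further down are from that fit as well. The median of all genes was not at 0 but at −0.42 in U12Δ/Δ, −0.51 in U6atacΔ/Δ and −0.23 in SmnΔ/Δ, so each log2 fold change is followed by its difference from that median.

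In U12Δ/Δ, 0 of the 6 genes tested changed (adjusted p under 0.05), and 0.223% of all genes did. None had an unadjusted p under 0.05 either, against 22.4% of all genes, and limma's voom on the whole reads called 0 of the 6, with 1, *GluRIID*, at an unadjusted p under 0.05. The lowest value was that of *GluRIID*, at −1.27 (SE 0.59, adjusted p = 0.251), which was −0.85 relative to the median. *GluRIIA* was at −0.10 (SE 0.44), *GluRIIB* at −0.08 (SE 0.35) and *GluRIIC* at −0.41 (SE 0.72), or 0.32, 0.34 and 0.01 relative to the median. *GluRIIE* was at −0.28 (SE 0.51) and *dlg1* at −0.22 (SE 0.49), with adjusted p of 0.774 and 0.818. Of the 6, 0 were above both or below both *WT* libraries, whereas 6.18% of all genes were above and 50.2% below. The sign of *GluRIIA*, *GluRIIB*, *GluRIIC*, *GluRIIE* and *dlg1* turned positive under median-ratio scaling and quantile normalization, and that of *GluRIID* did not.

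In U6atacΔ/Δ, 0 of the 6 changed and 11.3% of all genes did. The unadjusted p was under 0.05 for 0 of the 6, against 32.6% of all genes, and voom called 0 as well. *GluRIID* had the highest value, at 0.39 (SE 0.59, adjusted p = 0.678) or 0.90 relative to the median, and *GluRIIE* the lowest, at −0.66 (SE 0.51, adjusted p = 0.392) or −0.15. *GluRIIA*, *GluRIIB*, *GluRIIC* and *dlg1* lay between, at −0.14, −0.19, −0.17 and −0.37 with adjusted p of 0.858, 0.740, 0.893 and 0.628, and turned positive under median-ratio scaling. *Neto* was at 0.11 (SE 0.20). None of the 6 lay above both or below both *WT* libraries, against 10.9% and 58.4% of all genes, and the scaling also moved the balance of all called genes, from 13.2% upward to 55.5%.

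In SmnΔ/Δ, 0 of the 6 changed and 12.5% of all genes did. The unadjusted p was under 0.05 for 0 of the 6, against 29.9%, and voom called 0 of them. *dlg1* had the highest value, at 0.59 (SE 0.49, adjusted p = 0.468) or 0.82 relative to the median, and *GluRIID* the lowest, at −0.64 (SE 0.59, adjusted p = 0.512) or −0.40. *GluRIIA* was at 0.22 (SE 0.44), *GluRIIC* at −0.23 (SE 0.72) and *GluRIIE* at −0.31 (SE 0.51). *GluRIIB* was at 0.26 (SE 0.35, adjusted p = 0.666) and was the 1 gene of the 6 above both *WT* libraries, as were 19.9% of all genes, while 0 were below both and 40.7% of all genes were. Median-ratio scaling moved the share of upward calls among all genes from 43.9% to 57.3%. With it *dlg1* was at 17.1 and 12.3 TPM in SmnΔ/Δ, above every library of the other strains (highest 11.1 TPM, U12Δ/Δ library 2). The share of all genes with this pattern after scaling was not computed. Without scaling it was 13.5%, and *dlg1* in SmnΔ/Δ library 2 (11.1 TPM) was then below *WT* library 2 (13.4 TPM). Voom with this scaling put *dlg1* at 0.87 (SE 0.33, unadjusted p = 0.0365, adjusted p = 0.114), where 16.0% of genes were called.

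*Neto* in SmnΔ/Δ was at 0.73 (SE 0.20, adjusted p = 0.065) on the log2(TPM + 1) scale, which compresses a gene below 1 TPM. Fitted by voom on its reads, a fit added after the values were seen, its log2 fold change was 2.11 (SE 0.46, adjusted p = 0.0336), where 13.2% of 12172 genes were called. With median-ratio scaling it was 2.19 (SE 0.41, adjusted p = 0.022), where 16.0% were called. The scaled levels were 1.09 and 1.10 TPM in SmnΔ/Δ against 0.187 and 0.299 TPM in *WT*, and 0.433 to 0.798 TPM in the other deletion strains. The call thus depended on the scale of the test, and it was lost when any 1 of the 4 libraries compared was left out, where the voom value was 1.75 (without *WT* library 1, adjusted p = 0.156) to 2.45 (without *WT* library 2, adjusted p = 0.0878), and 2.07 and 2.15 without SmnΔ/Δ library 1 and 2 (adjusted p = 0.122 and 0.0943). The SmnΔ/Δ libraries also held few of the late L3 transcripts given above, and the part of stage in the *Neto* level was not tested.

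**Figure D5:**
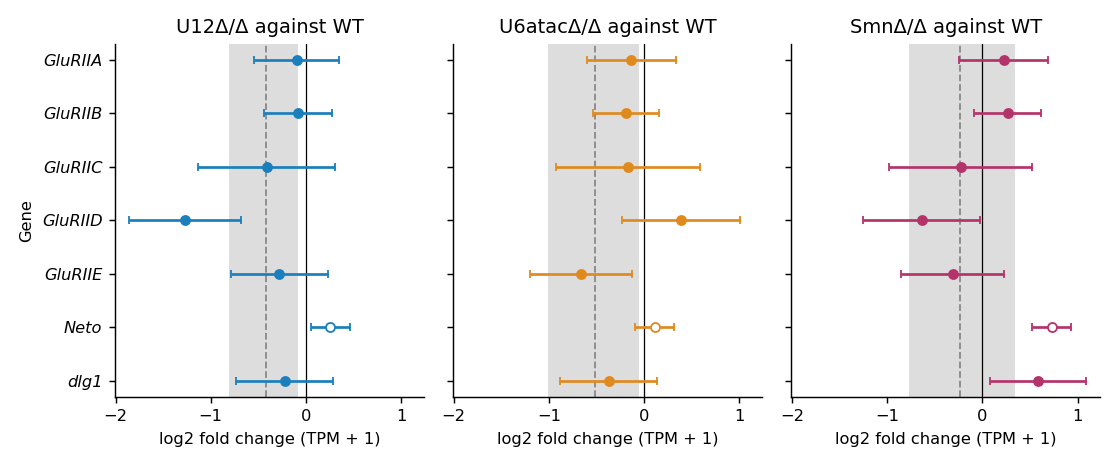
log2 fold change on TPM + 1 (x axis) of each gene (y axis) in the 3 deletion strains against *WT*, with bars of 1 SE, a dashed line at the median of all genes tested and a grey band over their middle quartiles. The bars are from the fit without the limit, except for the receptor subunits in U12Δ/Δ, where they are from the main test. *GluRIID* lies left of the band in U12Δ/Δ (−1.27) and right of it in U6atacΔ/Δ (0.39), and the open points mark *Neto*, which was below the limit for the main test (0.73 in SmnΔ/Δ).

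The deletion strains were also compared with each other. Between U12Δ/Δ and U6atacΔ/Δ, which both lack a minor spliceosome snRNA, 0 of the 6 genes changed and 0.0178% of all genes did. *GluRIID* was lower in U12Δ/Δ by −1.66 (SE 0.59, adjusted p = 0.83), the 1 gene of the 6 with an unadjusted p under 0.05, against 4.40% of all genes, and the 1 gene of the 6 with both libraries lower, against 9.92%. Voom gave −1.88 (SE 0.57, adjusted p = 0.62), so the difference failed the correction in both fits, and 0 of the 6 had both libraries higher, against 14.5% of all genes.

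Between U6atacΔ/Δ and SmnΔ/Δ, 0 of the 6 changed and 9.72% of all genes did, with 0 of the 6 and 25.6% of all genes at an unadjusted p under 0.05. *GluRIID* was higher in both U6atacΔ/Δ libraries, by 1.02 (SE 0.59, adjusted p = 0.316), as were 14.7% of all genes. *GluRIIA* (−0.36), *GluRIIB* (−0.46) and *dlg1* (−0.96, adjusted p = 0.265) were lower in both, as were 44.8%. Voom on the reads called 0 of the 6, with *dlg1* at an unadjusted p under 0.05, and called *Neto* at −1.60 (adjusted p = 0.0489, with 17.5% of genes called), which with median-ratio scaling was −1.06 (adjusted p = 0.123).

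Between U12Δ/Δ and SmnΔ/Δ, 0 of the 6 changed and 6.37% of all genes did, with 0 of the 6 and 19.7% at an unadjusted p under 0.05, and voom called 0. *GluRIIB* was lower in both U12Δ/Δ libraries, by −0.35 (SE 0.35, adjusted p = 0.652), as were 31.2% of all genes. *Neto* was at −0.47 (SE 0.20, adjusted p = 0.276) and by voom at −1.26 (SE 0.40, adjusted p = 0.102). All of these comparisons share libraries, so their values are not independent of each other.

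The spread between libraries of a strain differed among the genes. The residual SD on the log2 scale was 0.93 for *GluRIIC*, larger than in 92.3% of genes, 0.72 for *GluRIID*, 0.59 for *GluRIIE*, 0.56 for *dlg1*, 0.47 for *GluRIIA* and 0.30 for *GluRIIB*, against a median of 0.39.

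Other genes of the synapse were read from lists. For these and the marker lists after them, SE, adjusted p and calls are from the fit without the limit. Only genes that passed the limit are counted as tested. Of 10 other glutamate receptor genes 3 passed the limit, and 0 changed against *WT* in any strain. *KaiR1D*, a kainate-type receptor that acts presynaptically at this synapse, was at 0.14, −0.02 and 0.05 in U12Δ/Δ, U6atacΔ/Δ and SmnΔ/Δ, and *GluClalpha*, a glutamate-gated chloride channel, at −0.38, −0.65 and 0.54. *GluClalpha* was lower in U6atacΔ/Δ than in SmnΔ/Δ, at −1.19 (SE 0.27, adjusted p = 0.0462 in the fit without the limit), the 1 call in this list. Its adjusted p in the main test is not reported here.

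Of 22 postsynaptic scaffold, adhesion and cytoskeleton genes 20 were tested, and 0 changed in any of the 6 comparisons. Their median log2 fold change was −0.22 in U12Δ/Δ, −0.27 in U6atacΔ/Δ and 0.09 in SmnΔ/Δ, above the medians of all genes. *pll*, a kinase that acts with Dorsal and Cactus in clustering the receptor, was the lowest in U6atacΔ/Δ, at −0.97 (SE 0.35, adjusted p = 0.122), and in SmnΔ/Δ, at −1.03 (SE 0.35, adjusted p = 0.108). *Ten-m*, a teneurin that bridges the synapse, was the highest in U12Δ/Δ, at 0.60 (SE 0.53), and in SmnΔ/Δ, at 0.96 (SE 0.53, adjusted p = 0.282). In U12Δ/Δ the lowest was *Pak*, a kinase of the postsynaptic density, at −0.71 (SE 0.45), and in U6atacΔ/Δ the highest was *dl*, the Rel protein Dorsal, at 0.42 (SE 0.51).

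Of 9 genes of the retrograde BMP signal from muscle to motor neuron 8 were tested, and 0 changed in any of the 6 comparisons. Their median was −0.43 in U12Δ/Δ, −0.48 in U6atacΔ/Δ and −0.22 in SmnΔ/Δ, close to those of all genes. *tkv*, a type I BMP receptor, was the lowest in U12Δ/Δ, at −0.86 (SE 0.37, adjusted p = 0.237), and in U6atacΔ/Δ, at −1.05 (SE 0.37, adjusted p = 0.111). The lowest in SmnΔ/Δ was *gbb*, the ligand, at −0.52 (SE 0.28, adjusted p = 0.281). The highest in U6atacΔ/Δ was *wit*, the type II receptor, at −0.04.

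Markers of the cells that could carry the signal were present in every library. All 15 muscle genes were tested and 0 changed in any comparison, with sums of 13987 and 35583 TPM in *WT*, 8927 and 34425 in U12Δ/Δ, 20568 to 23174 in U6atacΔ/Δ and 13194 to 21395 in SmnΔ/Δ. The extremes against *WT* were *sls* (titin-like, 0.41) and *wupA* (troponin I, −0.90) in U12Δ/Δ, *Mhc* (0.49) and *wupA* (−0.60) in U6atacΔ/Δ, and *tn* (a muscle ubiquitin ligase, 0.95) and *Act87E* (an actin, −0.89) in SmnΔ/Δ.

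Of 9 neuron genes, 8 were tested and 0 changed in U12Δ/Δ and U6atacΔ/Δ. Their sum was 67.2 to 72.1 TPM in *WT*, 51.4 to 64.4 in U12Δ/Δ, 48.6 to 67.5 in U6atacΔ/Δ and 46.3 to 73.3 in SmnΔ/Δ, and the neuronal gene *elav* was between 1.52 and 5.61 TPM. In SmnΔ/Δ *Syt1*, the calcium sensor of transmitter release, fell by 1.72 (SE 0.34, adjusted p = 0.0241), while the calcium channel gene *cac* was at 0.89 (SE 0.26, adjusted p = 0.0755). *VGlut*, the vesicular transporter that marks motor neurons, was at 3.30 and 3.21 TPM in *WT*, 2.19 and 2.11 in U12Δ/Δ, 0.943 and 1.92 in U6atacΔ/Δ and 4.09 and 2.87 in SmnΔ/Δ. For *elav* the values were −0.94 in U12Δ/Δ (adjusted p = 0.199) and −1.15 in U6atacΔ/Δ (adjusted p = 0.0891), the lowest of the list, and the highest were *Syx1A*, a syntaxin (−0.01), and *Syt1* (−0.05).

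Of 4 glia genes 3 were tested, and 0 changed against *WT*. Their sums were 42.4 to 48.3 TPM in *WT*, 25.7 to 38.1 in U12Δ/Δ, 21.0 to 28.3 in U6atacΔ/Δ and 33.6 to 44.4 in SmnΔ/Δ, with *nrv2*, a sodium pump subunit, lowest at −0.83 in U12Δ/Δ (adjusted p = 0.198) and −1.19 in U6atacΔ/Δ (adjusted p = 0.0651), and *moody*, a blood-brain barrier receptor, highest in all 3 strains, at 0.35, 0.13 and 0.93. In SmnΔ/Δ the lowest of this list was *repo*, at −0.89 (SE 0.35, adjusted p = 0.148), and *nrv2* was at −0.55. The part of neuron, glia and muscle content in the levels of the receptor genes was not tested beyond the muscle relation above.

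Of 12 late L3 genes 11 were tested. In SmnΔ/Δ 7 fell, the glue gene *Sgs1*, *Fbp1*, *Fbp2* and the hexamerin genes *Lsp1alpha*, *Lsp1beta*, *Lsp1gamma* and *Lsp2*, with *Fbp2* at −12.32 (SE 0.33, adjusted p = 4.34e-05), and 0 changed in the other strains. They took 7.91% to 8.25% of all TPM in *WT*, 6.76% to 18.2% in U12Δ/Δ, 4.86% to 5.35% in U6atacΔ/Δ and at most 0.000512% in SmnΔ/Δ. The extremes in U12Δ/Δ were *Lsp1gamma* (0.29) and *Sgs5* (−4.66), and in U6atacΔ/Δ *Lsp1gamma* (0.71) and *Sgs8* (−4.37).

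The genes most like each member were found by Pearson's correlation of log2(TPM + 1) over the 8 libraries, as a description, since libraries of 1 strain share their source. *GluRIIC* was nearest to *Tm1* (tropomyosin, r = 0.98) and *up* (troponin T, r = 0.98), both of the muscle list. *GluRIIA* was nearest to *CG10631* (r = 0.998) and *C3G*, a Rap1 exchange factor (r = 0.99), and *GluRIIB* to *Poxm*, a paired-box factor of larval muscle (r = 0.97), and *otp*, a homeobox factor (r = 0.95). *GluRIID* was nearest to *Cyp12e1*, a cytochrome P450 (r = 0.94), and *pn* (r = 0.94). *GluRIIE* was nearest to *Ctr1A*, a copper transporter, and *FAM21*, of the WASH complex (r = 0.99 and 0.98), and *dlg1* to *Doa*, a LAMMER kinase, and *nej*, the fly CBP acetyltransferase (r = 0.99 each). Among the 15 pairs of the 6 genes themselves, r ran from 0.03 for *GluRIIB* and *GluRIID* to 0.90 for *GluRIIA* and *dlg1*.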

How the data were processed

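Total RNA of whole larvae was used for mRNA sequencing with paired-end libraries (NEBNext Ultra RNA kit, strand use not given in the sources used here). The submitters' processing notes name dm6, TopHat2 and featureCounts, and the authors deposited TPM for each of 8 libraries beside gene coordinates and length. The step that made TPM is not given in the sources used here.

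Products of deposited TPM and length were whole multiples of 1 read only with lengths of other rows. Reads were recovered with a tolerance of 0.002 of a read, and TPM was recomputed with each gene's own length, for 17130 of 17473 genes, while 343 genes were left out. This replaced the TPM as deposited in the design, and the recovery was tested on simulated data. Gene symbols were taken from the annotation for 17330 genes, and 17217 had the same coordinates in both. Counting intervals were not computed, and depth per library is the number of recovered reads.

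Groups follow the labels. limma 3.58.1 in R 4.3.3 (lmFit, contrasts, eBayes with trend) was fitted on log2(TPM + 1) over genes whose TPM averaged 1 or more, 8 libraries in 1 fit with 4 groups, with Benjamini-Hochberg adjustment and a threshold of 0.05. The SE and adjusted p of *Neto* and of the list genes are from the same fit over all genes with reads. The subunit ratio and the muscle relation were tested by exact permutation (scipy 1.17.1). Other steps used Python 3.11.15, numpy 2.4.6, pandas 2.3.3 and matplotlib 3.10.9. The 2 libraries of a strain are biological repeats, each of pooled larvae.

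The text names all 7 genes, the highest, the lowest and any called gene of the lists of other glutamate receptors, postsynaptic genes, BMP signal, muscle, neuron, glia and late L3 against *WT*, and for each gene tested its 2 nearest genes by correlation. The highest gene of the BMP list in U12Δ/Δ and SmnΔ/Δ is not reported here. *VGlut* and *Sgs3* were added after their values were seen. The members and lists were chosen with earlier results of these data known. Alternatives were another pseudocount (0.1), filter, scaling, centring on the 10 genes around a gene in the table, no trend, a replicate block, only the libraries compared and leaving out each library. The deposited TPM, voom on genes with a mean of at least 10 reads, voom with median-ratio scaling and the *GluRIID* share were added after the data were seen. The design gave the genes relative to muscle as values per library only, and the tests of the muscle relation were added to it.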

Additional observations from a re-analysis of the deposited data

How the results depend on the processing

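There were 2 libraries per strain, and *Neto* was read from 38 to 196 reads. Over 12 other settings, 444 values of the 7 genes were computed, 371 kept their sign and 5 were called. The cause of the changes below was not tested. Leaving out 1 library, with the lone sample assumed to vary like the other groups, changed the number of all genes called from 25 to between 25 (without *WT* library 2) and 1573 (without U12Δ/Δ library 2) for U12Δ/Δ against *WT*, from 1262 to between 13 (without U6atacΔ/Δ library 2) and 147 (without *WT* library 1) for U6atacΔ/Δ against *WT*, and from 1400 to between 670 and 837 (without SmnΔ/Δ library 1 or 2) for SmnΔ/Δ against *WT*. For U12Δ/Δ against SmnΔ/Δ the number was 537 (without SmnΔ/Δ library 1) to 1182 (without U12Δ/Δ library 2), for U6atacΔ/Δ against SmnΔ/Δ 443 (without U6atacΔ/Δ library 2) to 854 (without SmnΔ/Δ library 2), and for U12Δ/Δ against U6atacΔ/Δ 23 (without U6atacΔ/Δ library 2) to 71 (without U12Δ/Δ library 1).

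Signs that turned when 1 library was left out had these ranges of log2 fold change. In U12Δ/Δ against *WT*, *GluRIIA* had −0.63 to 0.44, *GluRIIB* −0.28 to 0.11, *GluRIIC* −1.35 to 0.53, *GluRIIE* −0.85 to 0.29 and *dlg1* −0.69 to 0.24. In U6atacΔ/Δ against *WT*, *GluRIIA* had −0.47 to 0.19, *GluRIIB* −0.55 to 0.16, *GluRIIC* −1.11 to 0.77, *GluRIID* −0.41 to 1.19 and *dlg1* −0.76 to 0.012. In SmnΔ/Δ against *WT*, *GluRIIA* had −0.10 to 0.55, *GluRIIC* −1.17 to 0.71, *GluRIID* −1.44 to 0.16 and *GluRIIE* −0.86 to 0.24. In U12Δ/Δ against SmnΔ/Δ, *GluRIIA* had −0.86 to 0.21, *GluRIIC* −1.04 to 0.68 and *GluRIIE* −0.54 to 0.60. In U6atacΔ/Δ against SmnΔ/Δ, *GluRIIC* had −0.28 to 0.40. In U12Δ/Δ against U6atacΔ/Δ, *GluRIIA* had −0.50 to 0.57, *GluRIIB* −0.25 to 0.46, *GluRIIC* −1.10 to 0.62, *GluRIIE* −0.18 to 0.95 and *dlg1* −0.32 to 0.62.

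Median-ratio scaling gave 582 called genes for U6atacΔ/Δ against *WT* and 7 for U12Δ/Δ against U6atacΔ/Δ. It turned the sign of *GluRIIA* (0.32), *GluRIIB* (0.27), *GluRIIC* (0.063), *GluRIIE* (0.15) and *dlg1* (0.24) in U12Δ/Δ, of *GluRIIA* (0.40), *GluRIIB* (0.23), *GluRIIC* (0.44) and *dlg1* (0.20) in U6atacΔ/Δ, of *GluRIIC* in SmnΔ/Δ (0.0059) and in U12Δ/Δ against SmnΔ/Δ (0.057), and of *GluRIIA* in U12Δ/Δ against U6atacΔ/Δ (−0.081). Quantile normalization gave 378 called genes for U6atacΔ/Δ against *WT*, 2468 for SmnΔ/Δ against *WT* and 5 for U12Δ/Δ against U6atacΔ/Δ. It turned *GluRIIA* (0.59), *GluRIIB* (0.58), *GluRIIC* (0.10), *GluRIIE* (0.36) and *dlg1* (0.34) in U12Δ/Δ and *GluRIIA* (0.67), *GluRIIB* (0.64), *GluRIIC* (0.34), *GluRIIE* (0.12) and *dlg1* (0.27) in U6atacΔ/Δ. Against SmnΔ/Δ it turned *GluRIIA* (0.12), *GluRIIB* (0.13) and *GluRIIC* (0.15) in U12Δ/Δ and *GluRIIA* (0.20), *GluRIIB* (0.18) and *GluRIIE* (0.23) in U6atacΔ/Δ, and between U12Δ/Δ and U6atacΔ/Δ *GluRIIA* (−0.080) and *GluRIIB* (−0.058).

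Centring on the 10 genes around a gene gave 69 called genes for U12Δ/Δ and 2424 for SmnΔ/Δ against *WT*, 1178 and 1862 for U12Δ/Δ and U6atacΔ/Δ against SmnΔ/Δ and 7 for U12Δ/Δ against U6atacΔ/Δ. It called 1 of the 6 genes, *GluRIIA*, in U6atacΔ/Δ (1.55, adjusted p = 0.0343) and in SmnΔ/Δ (1.42, adjusted p = 0.0214), a call that no other setting made. It turned *GluRIIA* (1.39), *GluRIIB* (0.33), *GluRIIC* (0.42) and *GluRIIE* (0.48) in U12Δ/Δ, *GluRIIB* (0.16), *GluRIIC* (0.62) and *GluRIIE* (0.085) in U6atacΔ/Δ and *GluRIIC* (1.62) and *GluRIIE* (0.52) in SmnΔ/Δ. Between deletion strains it turned *GluRIIE* (−0.033) in U12Δ/Δ and *GluRIIA* (0.13) and *GluRIIC* (−0.999) in U6atacΔ/Δ against SmnΔ/Δ, and *GluRIIA* (−0.15) in U12Δ/Δ against U6atacΔ/Δ.

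The TPM as deposited gave 0 called genes in U12Δ/Δ and in U6atacΔ/Δ and 161 in SmnΔ/Δ against *WT*, 140 for each of the others against SmnΔ/Δ and 0 for U12Δ/Δ against U6atacΔ/Δ. They turned *GluRIIB* (0.62) and *Neto* (−0.74) in U12Δ/Δ, *GluRIIB* (0.66), *GluRIIC* (0.50) and *Neto* (−1.64) in U6atacΔ/Δ and *GluRIIA* (−0.52) and *GluRIIB* (−0.25) in SmnΔ/Δ. Between deletion strains they turned *GluRIIB* (0.87) and *GluRIIC* (0.029) in U12Δ/Δ and *GluRIIB* (0.91) and *GluRIIE* (0.44) in U6atacΔ/Δ against SmnΔ/Δ, and *GluRIIB* (−0.040) and *GluRIIE* (−0.19) in U12Δ/Δ against U6atacΔ/Δ.

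Voom on the reads gave 2 called genes in U12Δ/Δ and 2130 in U6atacΔ/Δ against *WT*, 2135 for U6atacΔ/Δ against SmnΔ/Δ and 0 for U12Δ/Δ against U6atacΔ/Δ. It called 1 of the 7 genes, *Neto*, in SmnΔ/Δ against *WT* and in U6atacΔ/Δ against SmnΔ/Δ, and turned *GluRIIE* (−0.062) in U12Δ/Δ and *GluRIIC* (−0.040) in U6atacΔ/Δ against SmnΔ/Δ. With median-ratio scaling it gave 4 in U12Δ/Δ and 342 in U6atacΔ/Δ against *WT* and 0 for U12Δ/Δ against U6atacΔ/Δ, and called 1 of the 7, *Neto*, in SmnΔ/Δ against *WT*. It turned *GluRIIA* (0.40), *GluRIIB* (0.41), *GluRIIC* (0.090), *GluRIIE* (0.20) and *dlg1* (0.28) in U12Δ/Δ, *GluRIIA* (0.51), *GluRIIB* (0.37), *GluRIIC* (0.51) and *dlg1* (0.25) in U6atacΔ/Δ and *GluRIIC* (0.0115) in SmnΔ/Δ. Against SmnΔ/Δ it turned *GluRIIC* (0.078) in U12Δ/Δ and *GluRIIA* (0.00051) and *GluRIIE* (0.0015) in U6atacΔ/Δ, and *GluRIIA* (−0.11) between U12Δ/Δ and U6atacΔ/Δ.

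A pseudocount of 0.1 gave 7 called genes in U12Δ/Δ and 282 in U6atacΔ/Δ against *WT* and 0 between these strains, and set *Neto* relative to muscle in SmnΔ/Δ at 1.74 above *WT*. No filter on the mean gave 172 in U12Δ/Δ, and a mean TPM of at least 5 gave 5, 21 and 754 in U12Δ/Δ, U6atacΔ/Δ and SmnΔ/Δ against *WT*, 475 and 674 for the first 2 against SmnΔ/Δ and 0 between them. A fit of the compared libraries alone gave 0 in U12Δ/Δ and 2414 in U6atacΔ/Δ against *WT*, 2016 for U6atacΔ/Δ against SmnΔ/Δ and 0 for U12Δ/Δ against U6atacΔ/Δ. The replicate block gave 495 called genes in U6atacΔ/Δ against *WT* and 4 for U12Δ/Δ against U6atacΔ/Δ and called 0 of the 6 genes in any comparison. Deviations of same-numbered libraries correlated at −0.27 to 0.23 over the 6 pairs of strains, so the numbers do not pair the libraries.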
